A study of Mus musculus with 4 samples.

Results

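The serpin genes are described here in C3H10T1/2, an established line of mouse mesenchymal stem cells, with and without bone morphogenetic protein 3 (BMP3), a secreted ligand of the TGF-beta superfamily. The members were all genes whose platform symbol consists of Serpin, a clade letter from a to i and a number, read from probe sets assigned to that symbol alone. There were 40 such genes among 18193 genes in all. Where a gene had several probe sets, the brightest one over the 4 arrays stands for it. The family was chosen by the measured values of 1 member, Serpinb9b, which was higher in the BMP3 arrays of this comparison. Its difference is therefore given as a description with no test, and the counts over the family support nothing by themselves.

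The control group was untreated cells (2 arrays) and the other group was exposed for 6 h to recombinant human BMP3 at 100 ng/ml (2 arrays). Both groups were the same cell line under standard culture, and total RNA was hybridised to Affymetrix 3' arrays. The labels call the arrays biological replicates without saying that they came from separate cultures, so p-values measure the spread between these arrays only. Values are log2 intensities as deposited, and all differences are BMP3 minus control.

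Serpins are proteins of 1 shared fold that mostly inhibit serine proteases by trapping the protease after it cuts an exposed reactive loop. Some clade B members, which lack a secretion signal and act inside cells, inhibit granzymes or cathepsins. Others have lost inhibition, such as the collagen chaperone encoded by Serpinh1. In mesenchymal cells serpins are known for their part in collagen folding and in the control of complement and of plasminogen activation.

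A mean log2 value of 6 over the 4 arrays was taken as expressed, and 9 of the 40 members reached it. They were Serpinb1a, Serpinb6a, Serpinb6e, Serpinb8, Serpinb9, Serpinb9b, Serpinf1, Serping1 and Serpinh1. Just inside this level lay Serpinb9b, at 6.19, which reached it only through the BMP3 arrays and averaged under it when either of them was left out. Just outside lay Serpinb6b, at 5.49, and Serpinb1b, at 5.21. A level of 5 would count 11 members and a level of 7 would count 8. The other 29 members averaged 1.65 to 4.10. The arrays had median log2 values of 3.31 to 3.40, so all of these but Serpinb3a and Serpini1 averaged below the middle of the array. Levels of different probe sets depend on their probes and are not compared with each other here.

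**Figure D1:**
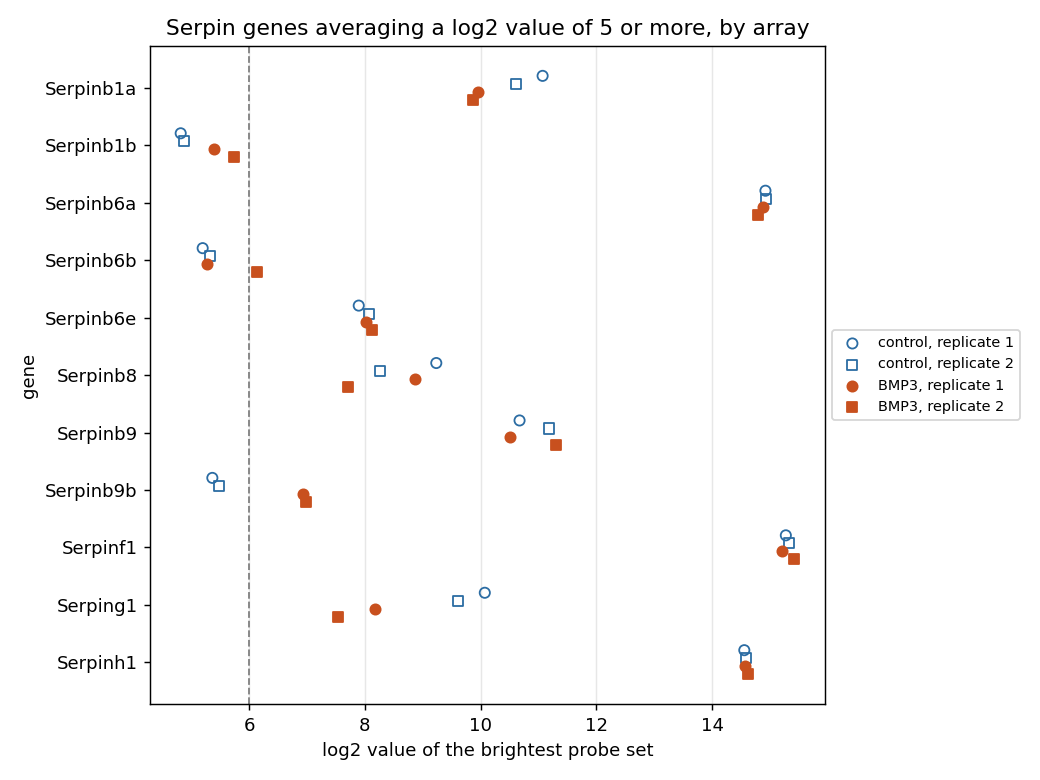
Log2 value (x axis) of the brightest probe set of each serpin gene averaging 5 or more, with 1 point per array; open symbols are control and filled symbols BMP3, circles replicate 1 and squares replicate 2, and the dashed line marks a log2 value of 6. Serping1, Serpinb1a and, by a small margin, Serpinb6a have both BMP3 arrays below both control arrays. Serpinb9b and Serpinb1b have both above, and Serpinb8 and Serpinb9 are spread by replicate number.

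The labelled cell type was checked against marker genes. Of 15 measured mesenchymal markers 14 averaged at least 6, with Nt5e the exception, while 0 of 12 hepatocyte markers and 0 of 11 leukocyte markers did. Of 10 epithelial and keratinocyte markers 2 did (Epcam and Trp63), and of 8 neuronal markers 2 did (Map2 and Stmn2). The Epcam probe set is of a type whose probes can match related sequences. Summed on the linear scale, hepatocyte markers came to 58 and 59 without BMP3 and 58 and 57 with it, and leukocyte markers to 73 and 75 without BMP3 and 74 and 80 with it. Epithelial markers summed to 908 and 946 without BMP3 and 1016 and 861 with it, and neuronal markers to 5043 and 5274 without and 4770 and 4932 with it. In RNA of a whole culture, fewer cells of a type and less RNA per cell cannot be told apart. Poly-A spike-in controls, added to the RNA and not made by the cells, were lower in BMP3 arrays on average. Mean levels were 10.12 against 8.99 for Dap and 5.91 against 5.43 for Thr. Control replicate 1 was the highest array for each poly-A control, as for Thr at 6.22 against 5.59 in control replicate 2. 18S ribosomal RNA was lower too, at 11.41 and 10.50 without BMP3 and 8.99 and 9.90 with it. Hybridization controls averaged 11.59 without BMP3 and 11.55 with it. The part of these controls in the results below was not tested.

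No serpin passed an adjusted p of 0.05 in limma, a linear model with variances moderated across probe sets, and the same held for the whole table. The share of all genes called was 0%, the smallest adjusted p over all probe sets was 0.213, and 3779 of 45037 probe sets had an unadjusted p under 0.05. A looser rule asked for a fold of 1.5 or more and for p under 0.05 before adjustment. Serpinb9b chose the family and is left out of that count. Of the other 39 members, 1 was higher in BMP3 arrays by this rule (Serpinb1b) and 2 were lower (Serping1 and Serpinb1a). Over all genes this rule called 1.18% higher and 1.65% lower, and among genes averaging at least 6 it called 2.00% higher and 2.83% lower. Since the family was chosen in this contrast, nothing is read from these counts. Serpinb1b missed the rule without control replicate 1, control replicate 2 or BMP3 replicate 2. Without BMP3 replicate 1 the higher count, with Serpinb9b in it, was 4. The count of lower members was 1 when either BMP3 array was left out. Values are given below by role, and a difference that passed only the looser rule did not pass the adjusted test.

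**Figure D2:**
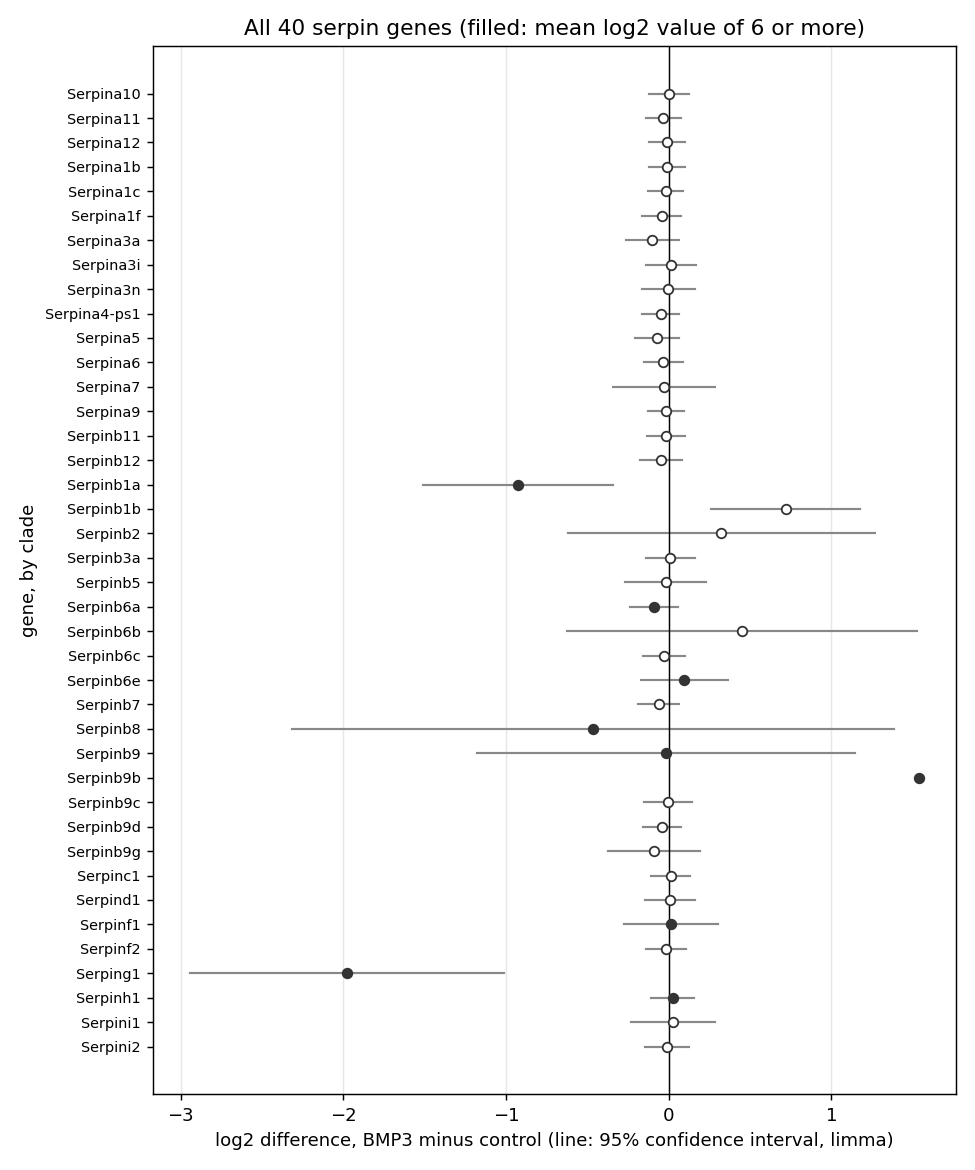
Log2 difference, BMP3 minus control, of all 40 serpin genes ordered by clade, with the 95% confidence interval from limma as a line for all but Serpinb9b, whose value chose the family; filled points average a log2 value of 6 or more. Serpinb9b (1.54) and Serpinb1b (0.72) lie to the right, Serping1 (-1.98) and Serpinb1a (-0.93) to the left, and the clade A genes lie between -0.10 and 0.01.

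Serpinb9b encodes a mouse relative of Serpinb9, the intracellular inhibitor of granzyme B. The brightest and only probe set of Serpinb9b read 5.37 and 5.48 without BMP3 and 6.94 and 6.98 with it. The groups did not overlap, and the arrays within each group lay close together. The mean was 5.42 ± 0.08 in control and 6.96 ± 0.03 in BMP3 arrays (SD, n = 2), a log2 difference of 1.54 or 2.91-fold. A gene picked for a small p among many tends to have a small SD, so these can understate its spread. Over the 13 alternative analyses run on it the difference ran from 1.26 to 1.69. These reuse the same arrays, and several leave the estimate unchanged by design, so this range is no support for the difference.

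The promoters of Serpinb9b and of Serpinb9 are shown because these genes lie next to each other on chromosome 13 and the values of only the former separated the groups. Each run is the 250 bases before the annotated start in RefSeq (GRCm38.p6), read 5′ to 3′ on the plus strand. Capitals mark runs of at least 8 bases that are identical between both in a global alignment.
Serpinb9b, chr13:33027164-33027413: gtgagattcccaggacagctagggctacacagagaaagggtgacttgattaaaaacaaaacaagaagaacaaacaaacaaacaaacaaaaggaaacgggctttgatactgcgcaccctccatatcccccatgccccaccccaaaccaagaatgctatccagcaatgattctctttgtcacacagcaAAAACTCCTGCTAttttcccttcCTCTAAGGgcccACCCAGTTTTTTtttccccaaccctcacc
Serpinb9, chr13:33004291-33004540: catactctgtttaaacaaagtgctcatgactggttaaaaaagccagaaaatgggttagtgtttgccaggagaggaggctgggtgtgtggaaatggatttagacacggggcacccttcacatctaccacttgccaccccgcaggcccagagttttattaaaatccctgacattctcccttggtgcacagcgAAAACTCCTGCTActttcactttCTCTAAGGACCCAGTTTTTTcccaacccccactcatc

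In the alignment, which has gaps, 226 bases of the pair were aligned and 154 were identical. That is 61.6% of the 250 bases of a window, and the identities below are likewise over 250 bases. The 3 marked runs, the longest of 13 bases, all lay within 64 bases of the start. Runs 2 and 3 adjoin in Serpinb9 and are printed there as 1 capital stretch. In Serpinb9b bases without a partner in Serpinb9 lie between them. The window of Serpinb9b matched those of 3 dim relatives, Serpinb9c, Serpinb9d and Serpinb9g, at 47.6% to 51.6%, and that of Serpinb1b at 48.4%. The neighbouring Serpinb6b gave 45.2%, and the serpins of other clades Serpinf1 and Serpinh1 gave 47.6% and 45.6%. Serpinb6a and Serpinb6e gave 48.8% to 49.2%, and Serpinb8, on chromosome 1, gave 53.6%. The window of Serpinb9 matched those of Serpinb9c, Serpinb9d, Serpinb9g and Serpinb1b at 50% to 54.8%. The letters AGAC, the core of a SMAD binding element, were searched on both strands. They occurred 0 times in the window of Serpinb9b and 1 time in that of Serpinb9, and 82.9% of 32851 promoter windows of the same length held them. The letters GGCGCC (9.59% of windows), TATAAA (12.4%), GGGCGG (32.7%), CCAAT (33.8%) and TGANTCA (6.75%), searched likewise, were found in neither. These matches describe letters in these windows only, and RefSeq windows were matched for 34 of the 40 members.

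Serpinb9 itself read 10.67 and 11.18 without BMP3 and 10.51 and 11.31 with it. The groups overlapped fully, and replicate 2 was above replicate 1 in both. The log2 difference was -0.02 with a 95% confidence interval of -1.18 to 1.14, which leaves room for a difference in either direction. Its other probe set had the same order, at 8.35 and 8.81 without BMP3 and 7.81 and 9.06 with it. The remaining relatives with a probe set of their own, Serpinb9c, Serpinb9d and Serpinb9g, stayed between 2.07 and 3.02 on all arrays, and a probe set shared by Serpinb9e, Serpinb9f, Serpinb9g and Serpinb9h between 2.97 and 3.04.

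Serpinb9b and Serpinb9 belong to a cluster of 17 serpin genes and pseudogenes on chromosome 13, of which 11 were measured. In RefSeq order Serpinb6b, Serpinb9, Serpinb9b and Serpinb1b follow one another among the serpins. Serpinb1b, a relative of the neutrophil elastase inhibitor Serpinb1a, read 4.82 and 4.87 without BMP3 and 5.39 and 5.75 with it. Both BMP3 arrays were above both control arrays, and no array reached 6. The difference was 0.72 ± 0.15 (SE, limma adjusted p = 0.409), and the gene met the looser rule in 7 of 12 alternatives. An ordinary linear model and an offset of 16 added on the linear scale were among those in which it did not. Serpinb6b read 5.20 and 5.32 without BMP3 and 5.28 and 6.14 with it. Only BMP3 replicate 2 stood apart there, and the difference of 0.45 ± 0.35 was 0.02 without that array.

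**Figure D3:**
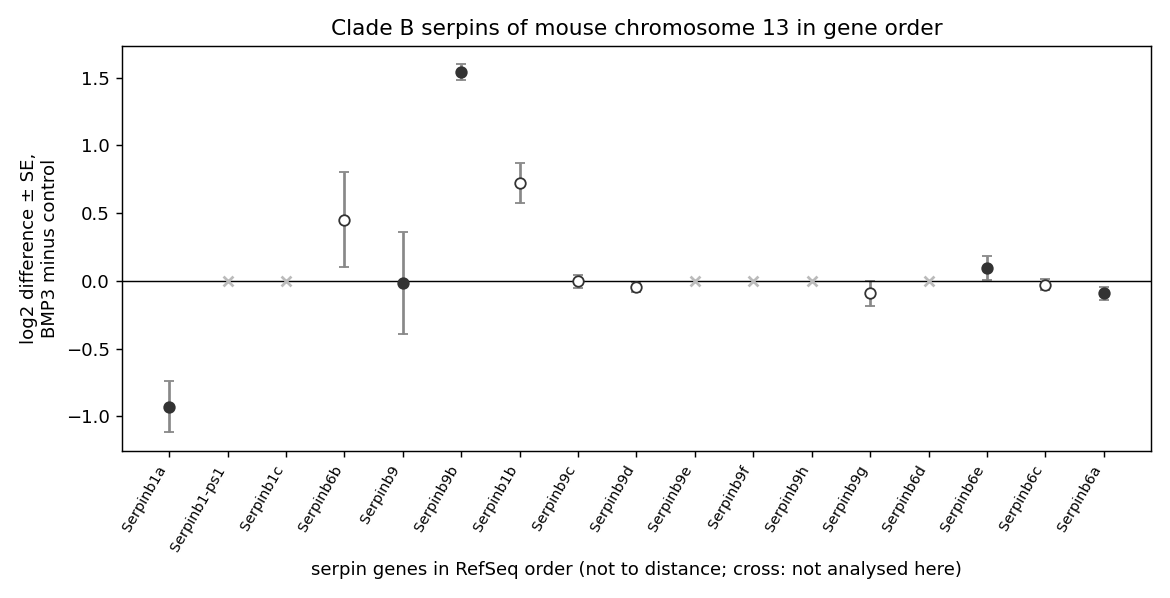
Log2 difference, BMP3 minus control, with its SE for the clade B serpins of chromosome 13 in RefSeq gene order, which is not drawn to distance; filled points average a log2 value of 6 or more, and crosses on the zero line are genes not analysed here. Serpinb9b (1.54) and Serpinb1b (0.72) stand next to each other, while Serpinb9 on the other side of Serpinb9b is at -0.02 and Serpinb1a at the end of the cluster is at -0.93. The SE of Serpinb9b is drawn too, but its value chose the family, so that SE can understate its spread and is no test.

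At the end of the same cluster, Serpinb1a encodes the inhibitor of neutrophil elastase, cathepsin G and proteinase 3. It read 11.07 and 10.61 without BMP3 and 9.95 and 9.87 with it. Both BMP3 arrays were below both control arrays. The mean was 10.84 ± 0.33 in control and 9.91 ± 0.06 in BMP3 arrays (SD, n = 2), a difference of -0.93 ± 0.19 (SE, 1.90-fold lower, limma adjusted p = 0.407). A second probe set read 7.93 and 8.25 without BMP3 and 6.99 and 6.79 with it, a difference of -1.20 ± 0.15 in the same direction. That probe set is of a type whose probes match several transcripts, so signal from near relatives cannot be told apart from its own. Over the alternatives the difference of the brighter probe set ran from -1.16 to -0.70, and the looser rule was missed when either BMP3 array was left out and in an ordinary linear model. Of the proteases it inhibits, Elane (neutrophil elastase) read 2.02 to 2.07 and Ctsg (cathepsin G) 2.15 to 2.35 on all arrays.

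Serping1 had the largest difference of the members by size. It encodes the C1 inhibitor, which blocks the complement proteases C1r and C1s as well as plasma kallikrein, and it is a secreted protein. Serping1 read 10.07 and 9.61 without BMP3 and 8.18 and 7.54 with it. The groups were separated by more than 1 log2 unit, and replicate 2 was below replicate 1 in both. The mean was 9.84 ± 0.32 in control and 7.86 ± 0.45 in BMP3 arrays (SD, n = 2). The difference was -1.98 ± 0.31 (SE), with a 95% confidence interval of -2.95 to -1.01 and a 3.94-fold lower level in BMP3 arrays (limma adjusted p = 0.335). It met the looser rule in 13 of 13 alternatives, between -2.30 and -1.66, without passing the adjusted threshold in any.

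Of the proteases that the C1 inhibitor acts on, C1r and C1s also had lower values in the BMP3 arrays. C1ra, which encodes C1r, read 11.80 and 11.39 without BMP3 and 10.90 and 10.18 with it, a difference of -1.05 ± 0.33 (SE, limma adjusted p = 0.579). C1s1, which encodes C1s, read 13.42 and 13.21 without BMP3 and 12.52 and 11.74 with it, a difference of -1.18 ± 0.32 (limma adjusted p = 0.505). The C1s1 probe set is of a type whose probes match several transcripts, so signal from near relatives cannot be told apart from its own. For each of these genes, as for Serping1, both BMP3 arrays were below both control arrays and BMP3 replicate 2 was the lowest. Without BMP3 replicate 2 the differences were -0.69 for C1ra and -0.80 for C1s1, while they were -1.41 and -1.57 with BMP3 replicate 1 left out instead. C1ra met the looser rule in 5 of 13 alternatives and C1s1 in 10 of 13. Masp1, a protease of the lectin pathway that the C1 inhibitor also blocks, read 12.48 and 12.70 without BMP3 and 12.59 and 12.86 with it, with overlapping groups. Its probe set is of the same type as that of C1s1. The plasma kallikrein gene Klkb1 read 2.03 to 2.09 on all arrays. These genes are named for that role, outside the rule.

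**Figure D4:**
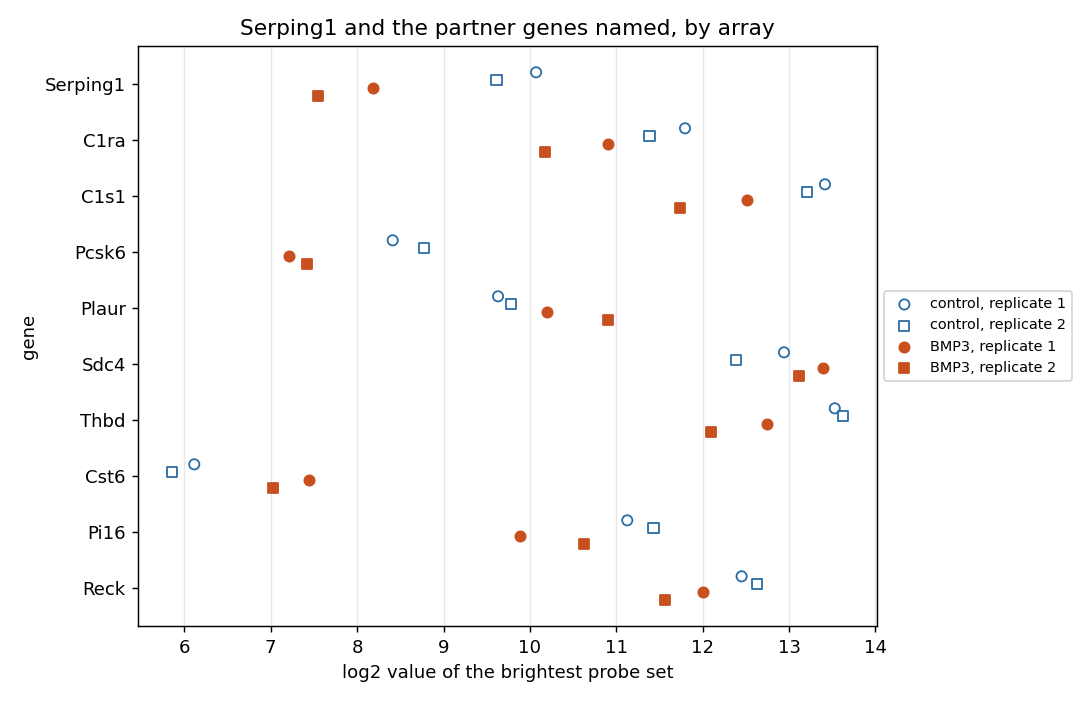
Log2 value (x axis) of Serping1 and of the 9 partner genes named by the rule, with 1 point per array; open symbols are control and filled symbols BMP3, circles replicate 1 and squares replicate 2. Serping1, C1ra and C1s1 have the same order of arrays, with BMP3 replicate 2 lowest and control replicate 1 highest.

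Serpinb8, an inhibitor of furin and other proteases, followed the replicate number. It read 9.23 and 8.26 without BMP3 and 8.86 and 7.71 with it. Replicate 2 was lower than replicate 1 by 0.97 in control and by 1.15 in BMP3 arrays, more than the difference of -0.46 ± 0.60 (SE) between the groups. Its other probe set, at 7.94 and 6.33 without BMP3 and 8.0 and 6.12 with it, was also lower in replicate 2 of both groups, while BMP3 replicate 1 was slightly above control replicate 1. The limma adjusted p of the brighter probe set was 0.927. Leaving out BMP3 replicate 2 gave a difference of 0.11, and leaving out BMP3 replicate 1 gave -1.04.

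**Figure D5:**
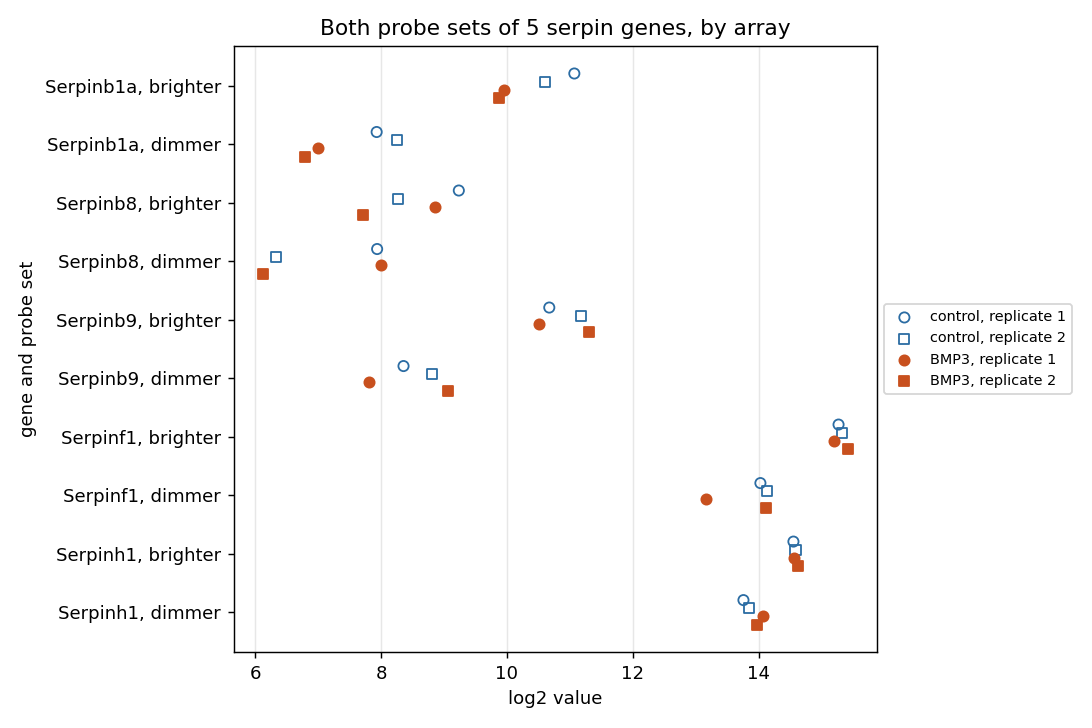
Log2 value (x axis) of both probe sets of Serpinb1a, Serpinb8, Serpinb9, Serpinf1 and Serpinh1, with 1 point per array; open symbols are control and filled symbols BMP3, circles replicate 1 and squares replicate 2. Both probe sets of Serpinb1a separate the groups, those of Serpinb8 and Serpinb9 separate the replicate numbers, and the dimmer one of Serpinf1 is low in BMP3 replicate 1 alone.

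Serpinf1 and Serpinh1 differed little between the groups. Serpinf1, which encodes the secreted anti-angiogenic protein PEDF, read 15.27 and 15.32 without BMP3 and 15.20 and 15.42 with it. Its difference was 0.01 ± 0.09 (SE), with a 95% confidence interval of -0.28 to 0.30. A second probe set gave 14.03 and 14.13 without BMP3 and 13.17 and 14.11 with it, where only BMP3 replicate 1 stood apart. Serpinh1, the collagen chaperone HSP47 of the endoplasmic reticulum, read 14.55 and 14.59 without BMP3 and 14.57 and 14.62 with it. Its difference was 0.02 ± 0.04 (95% confidence interval -0.11 to 0.15). The dimmer probe set, at 13.76 and 13.85 against 14.07 and 13.97, did not overlap and gave 0.22 ± 0.06. That dimmer probe set is of the type whose probes can match related sequences.

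Serpinb6a, an intracellular inhibitor of cathepsin G, read 14.92 and 14.93 without BMP3 and 14.88 and 14.79 with it. The groups did not overlap, but the difference was only -0.09 ± 0.05 (SE). Serpinb6e read 7.89 and 8.06 without BMP3 and 8.02 and 8.13 with it, with overlapping groups and a difference of 0.10 ± 0.09. The Serpinb6e probe set is of the type whose probes can match related sequences, so signal from Serpinb6a cannot be told apart from its own. Among the 8 expressed members other than Serpinb9b, BMP3 arrays lay wholly above control arrays for 0 and wholly below for 3, beside 26.1% and 21.7% of all genes averaging at least 6. The median difference over these 8 was -0.05, beside 0.02 over all 9185 genes at that level. Over the 39 members other than Serpinb9b the counts were 1 above and 12 below, beside 16.7% and 20.6% of all genes, and nothing is read from them since the family was chosen in this contrast.

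The other members stayed in the low range of the arrays. The 14 clade A genes, which include the antitrypsin genes Serpina1b and Serpina1c, the hormone carriers Serpina6 and Serpina7 and the acute phase gene Serpina3n, read 1.63 to 3.27 on all arrays. Their differences ran from -0.10 to 0.01. Serpinc1 (antithrombin), Serpind1 (heparin cofactor II), Serpinf2 (antiplasmin) and Serpini2 read 2.14 to 2.74, and the neuroserpin gene Serpini1 3.87 to 4.06. Of the 10 dim clade B genes, the epithelial serpins Serpinb3a, Serpinb5, Serpinb7, Serpinb11 and Serpinb12 read 1.95 to 4.14. Serpinb2, an inhibitor of plasminogen activators, read 3.04 and 3.09 without BMP3 and 3.01 and 3.77 with it, so its difference of 0.32 came from 1 array. Among the dim genes other than Serpinb2 the differences ran from -0.10 to 0.03.

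Proteases, receptors and other inhibitors around the serpins were read from 4 lists of 105 genes, of which 101 were measured and 40 averaged at least 6. None passed the adjusted threshold. By the looser rule 1 was higher and 7 were lower, against 1.18% and 1.65% of all genes, and the count of 8 became 4 without control replicate 2 and 5 without BMP3 replicate 2. Among 41 serine proteases 0 were higher and 3 lower, C1ra, C1s1 and Pcsk6, a proprotein convertase. Pcsk6 read 8.41 and 8.78 without BMP3 and 7.21 and 7.42 with it, with no overlap and a difference of -1.28 ± 0.17 (SE, limma adjusted p = 0.301). None of 12 cathepsins was called in either direction, and granzyme B (Gzmb) read 2.22 to 2.25 on all arrays.

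Among 17 receptors and cofactors 0 were higher and 1 lower, beside 1.18% and 1.65% of all genes. Thbd, which encodes thrombomodulin, a thrombin receptor that switches the protease to an anticoagulant role, read 13.53 and 13.63 without BMP3 and 12.75 and 12.10 with it. Its groups did not overlap, and the difference was -1.16 ± 0.26 (SE, limma adjusted p = 0.445), called in 10 of 13 alternatives but not without control replicate 1, without control replicate 2 or in an ordinary linear model. Plaur, the urokinase receptor, read 9.63 and 9.78 without BMP3 and 10.20 and 10.91 with it. Both BMP3 arrays were above both control arrays, with a difference of 0.85 ± 0.29, but the unadjusted p was 0.0574, so it was not called, though it was in 4 of 13 alternatives. Sdc4, a heparan sulphate proteoglycan, read 12.94 and 12.39 without BMP3 and 13.39 and 13.12 with it. Its difference of 0.59 ± 0.25 was not called either, though it was in 3 of 13 alternatives. The plasminogen activator genes Plat and Plau, named for their role outside the rule, had differences of -0.57 ± 0.85 and -0.58 ± 0.46 with overlapping groups.

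Among 31 inhibitors of other families 1 was higher and 3 lower, beside 1.18% and 1.65% of all genes. Cst6, a cystatin that inhibits cysteine proteases, read 6.12 and 5.86 without BMP3 and 7.44 and 7.03 with it. Its groups did not overlap, and the difference was 1.25 ± 0.20 (SE, limma adjusted p = 0.334). Cst6 met the level of 6 used for naming through the BMP3 arrays, as its mean was 5.99 in control and 7.24 in BMP3 arrays. Reck, a membrane-anchored inhibitor of matrix metalloproteinases, read 12.45 and 12.63 without BMP3 and 11.9996 and 11.57 with it, a difference of -0.76 ± 0.19, called in 9 of 13 alternatives. Pi16 read 11.13 and 11.43 without BMP3 and 9.89 and 10.63 with it, a difference of -1.02 ± 0.32, which was -0.51 as a mean over its probe sets and was called in 4 of 13 alternatives. The third lower gene was Itih5, named after its values were seen, at means of 6.98 and 4.97.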

How the data were processed

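The deposited values are taken as log2 intensities from their range, because no source used here states the scale. The submitters' processing notes name Partek. How background was corrected, arrays were normalized and probes were summarised is not stated in those notes or in the labels. If values were scaled to equalise arrays, a shift of most transcripts would be hidden. After 64 control probe sets were left out, 45037 were fitted by lmFit and eBayes of limma 3.58.1 (R 4.3.3, two-sided, Benjamini-Hochberg over all probe sets, no term for the replicate number, prior degrees of freedom 1.18). Symbols came from the platform annotation, and 34945 probe sets had 1 symbol, 932 several and 9160 none. All 40 serpin Entrez identifiers matched RefSeq (GRCm38.p6), and 0 symbols changed. The 40 genes had 56 probe sets, 12 of them of types that can match several transcripts, and 3 further probe sets with several symbols were not used for a gene. The precision is limited by 2 arrays per group.

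Members, lists and rules were chosen with earlier results of these data known. Named were all members averaging at least 6, those passing the looser rule, the Serpinb9 relatives, and up to 4 genes of each partner list averaging at least 6 with a fold of at least 1.5, by smallest p. An item of that rule is not reported here. Data of 45037 probe sets were simulated in this design. Among those averaging at least 6, 100 were changed by 1 on the log2 scale and 100 by 2. The adjusted threshold found 7% and 20% of these and the looser rule 85% and 96%. The looser rule also called 0.897% of 44837 unchanged probe sets. Noise was drawn independently for each array, while deviations of same-numbered arrays here correlated at 0.596, so these shares are not detection rates for these data. Alternatives were the replicate block, each array left out, 3 normalizations, a level filter, other priors, the mean of probe sets, an offset of 16 and other thresholds. Promoters were aligned with Biopython 1.88.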

Additional observations from a re-analysis of the deposited data

How the results depend on the processing

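The number of serpins past the adjusted threshold was 0 in each alternative run. The replicate number used as a block gave 2 members higher (Serpinb9b included, as in all such counts here) and 2 lower by the looser rule, as without it, and 11 partner genes against 8. Plaur and Sdc4, not called without the block, were called with it at unadjusted limma p of 0.0178 and 0.0106 (adjusted 0.219 and 0.184), and the limma adjusted p of Serpinb8 was 0.182 against 0.927. Deviations of same-numbered arrays correlated at 0.596 over 17152 probe sets. There were only 2 pairs, and the labels do not say whether same-numbered arrays shared a day or batch, which was not tested. With all 4 arrays 2 members lay wholly above and 12 wholly below, Serpinb9b included, beside 16.7% and 20.6% of all genes. With 1 array left out, the lone array is assumed to vary like the other group. The 14 members without overlap became 23 to 30 there, since fewer arrays overlap less often. Partner genes called ran from 4 to 7. Among probe sets averaging at least 6 alone, 1 member was higher, Serpinb9b, and 4 did not overlap, Serpinb9b among them. It reached that level only through the BMP3 arrays. An ordinary linear model called 1 higher, 1 lower and 2 partner genes. The offset of 16 called 1 higher, and a fold of 2 called 1 higher and 1 lower. The 1 higher was Serpinb9b each time, the gene that chose the family. No fold minimum called 14 partner genes. Shares over all genes were not computed under these alternatives, so nothing is read from the counts. Differences near 0 changed sign, and so did that of Serpinb8, which was -0.46 with all 4 arrays. Serpinf1 was -0.0332 under quantile normalization, -0.0562 under cyclic loess, -0.21 as a mean of probe sets and -0.0944 to 0.119 with 1 array left out. Serpinh1 was -0.0201 under quantile normalization, -0.0345 under loess and -0.00395 to 0.052 with 1 array left out. Serpinb9 was 0.0215 under median centring and -0.42 to 0.38 with 1 array left out, and Serpinb8 was -1.04 to 0.11. Serpinb9c was 0.0172 under quantile normalization, 0.0176 under loess, 0.0346 under median centring and -0.04465 to 0.0365, and Serpinb9g -0.184 to 0.00229, with 1 array left out. The causes were not tested. Scaling moved the median of all genes by at most 0.039.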
